A study of Homo sapiens with 6 samples.

Results

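The RNA exosome degrades and trims RNA from its 3′ end. Its core is a ring of subunits related to the bacterial phosphorolytic nuclease RNase PH (EXOSC4 to EXOSC9) under a cap of RNA-binding subunits (EXOSC1, EXOSC2 and EXOSC3). In human cells this core has lost its own catalysis and threads RNA to attached nucleases: DIS3, a 3′ to 5′ exonuclease that is also an endonuclease and works mainly in the nucleoplasm, EXOSC10, which is enriched in the nucleolus, and DIS3L, the cytoplasmic relative of DIS3. A further relative, DIS3L2, works in the cytoplasm without the exosome and prefers RNAs that carry a tail of uridines. The complex matures ribosomal and small nucleolar RNAs and removes unstable nuclear transcripts and messenger RNA fragments. DIS3 lies on the long arm of chromosome 13, an arm that is often gained in colorectal tumors.

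The genes described here are DIS3, DIS3L, DIS3L2, EXOSC10, EXOSC2, EXOSC3, EXOSC4, EXOSC5, EXOSC7 and EXOSC9, found by name, 10 of the 38041 genes in the expression table. They were chosen by the FPKM of DIS3 in these same libraries, whose increase over NC was the largest after that of EPHX2 among the genes past the test, and the question was whether the other exosome genes follow it. The difference of DIS3 between the groups was therefore the reason for the choice and is given as a description, with no test. The 3 other core subunits, EXOSC1, EXOSC6 and EXOSC8, were read as well and are given beside the members. RNA of HCT116, a human colon cancer cell line of epithelial origin, was sequenced from cells stably transfected with EPHX2 by a lentivirus (overEXP, 3 libraries) and from the negative control (NC, 3 libraries). EPHX2 encodes soluble epoxide hydrolase, which hydrolyses epoxides of fatty acids. The NC cells carried the empty vector according to the sample titles, while other fields of the labels call them untreated and normally cultured. Infected cells were selected with puromycin, and neither the promoter of the vector nor the independence of the 3 cell lines per group is given in the sources used here, so a p-value here speaks of the variation among these 6 libraries alone, part of which may be technical.

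Values are FPKM, fragments counted relative to the length of the transcript and to the mapped reads of the library, as estimated by the authors. FPKM are per length, so the levels of different genes can be set side by side within a library. This rests on the transcript length used for each gene. The filter on low values kept the 12281 genes that reached 1 FPKM in 3 or more libraries, and limma compared the groups on log2(FPKM + 1), with a threshold of 0.05 for the adjusted p. All 10 members and all 3 other core subunits passed this filter. The depth of the libraries is unknown, because FPKM do not hold read counts. EPHX2 was read at 157 to 181 FPKM in overEXP libraries, against 1.50 to 1.96 FPKM in NC libraries. All 7 epithelial markers were at 1 FPKM or more in every library. The library of overEXP replicate 2 stood apart: all 12 markers of differentiated intestine were at 1 FPKM or more in it, with a sum of 357 FPKM, against 1 marker (CDX2) and a sum of 3.10 to 4.10 FPKM in each of the other 5 libraries. The sum over 10 markers of blood and stroma was 9.30 FPKM in that library and 2.68 to 3.54 FPKM in the others. DIS3 in this library was as high as in overEXP replicate 1, and its log2 difference was 1.73 without overEXP replicate 2, against 1.69 with it. The part that these markers have in the other results was not tested.

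To show where the nucleases of the complex begin, the promoters of DIS3, EXOSC10 and DIS3L are printed from RefSeq (GRCh38.p14), each from 250 bases before to 50 bases after a start site, along the strand of the gene. Capitals mark matches to CCGGAAG, the core bound by ETS factors, and to CCAAT, on either strand (reverse CTTCCGG and ATTGG).
DIS3: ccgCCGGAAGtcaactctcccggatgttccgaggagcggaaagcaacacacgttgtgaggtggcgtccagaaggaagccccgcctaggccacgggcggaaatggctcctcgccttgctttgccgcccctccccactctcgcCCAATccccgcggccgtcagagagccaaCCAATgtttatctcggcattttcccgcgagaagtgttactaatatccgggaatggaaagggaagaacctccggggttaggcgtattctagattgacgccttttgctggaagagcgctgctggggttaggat
EXOSC10: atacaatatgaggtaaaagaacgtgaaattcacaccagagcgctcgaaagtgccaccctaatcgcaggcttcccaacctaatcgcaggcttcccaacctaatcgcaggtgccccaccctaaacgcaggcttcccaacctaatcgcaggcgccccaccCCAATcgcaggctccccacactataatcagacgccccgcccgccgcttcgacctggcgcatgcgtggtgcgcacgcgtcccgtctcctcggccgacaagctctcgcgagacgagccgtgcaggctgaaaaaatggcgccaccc
DIS3L: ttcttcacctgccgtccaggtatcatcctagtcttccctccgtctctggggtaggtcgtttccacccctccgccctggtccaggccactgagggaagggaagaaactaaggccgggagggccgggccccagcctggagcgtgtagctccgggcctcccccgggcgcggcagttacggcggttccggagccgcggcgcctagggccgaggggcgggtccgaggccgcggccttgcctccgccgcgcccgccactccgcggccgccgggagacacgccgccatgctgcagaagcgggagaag
The DIS3 window is chr13:72781851-72782150 on the minus strand, the EXOSC10 window chr1:11099820-11100119 on the minus strand and the DIS3L window chr15:66293318-66293617 on the plus strand. Promoter windows were found for 11 of the 13 genes, 13 windows in all, and none was matched for EXOSC1 and EXOSC4. CCGGAAG was in 2 of these 13 windows, those of DIS3 and DIS3L2, and in 10.3% of all 35116 promoter windows of the table. CCAAT was in 5 of the 13, those of DIS3, EXOSC10, EXOSC2, EXOSC5 and EXOSC9, and in 34.6% of all windows. The DIS3 window held CCAAT at 2 places, and the TATA box TATAAA (reverse TTTATA) was in 1 exosome window, that of EXOSC8, against 11.5% of all. These matches are letters of the sequence and say nothing of binding.

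Compared with the NC group, DIS3 was higher in every overEXP library. None of the 12 other exosome genes passed the test, a count near the share of 4.23% of all genes tested. DIS3 was read at 24.6, 24.6 and 29.4 FPKM in overEXP replicates 1 to 3, against 7.17, 7.71 and 7.38 FPKM in NC replicates 1 to 3. The lowest overEXP library was thus far above the highest NC library. The ratio of the group means was 3.53, and the difference on log2(FPKM + 1) was 1.69. DIS3 was chosen for its rank, the second largest increase among the genes past the test, so this rank is no result. Its log2 difference was the fifth largest among all 12281 genes tested. The table lists 3 transcripts of DIS3, all protein coding, and 1 value per gene, so the transcripts could not be told apart.

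**Figure D1:**
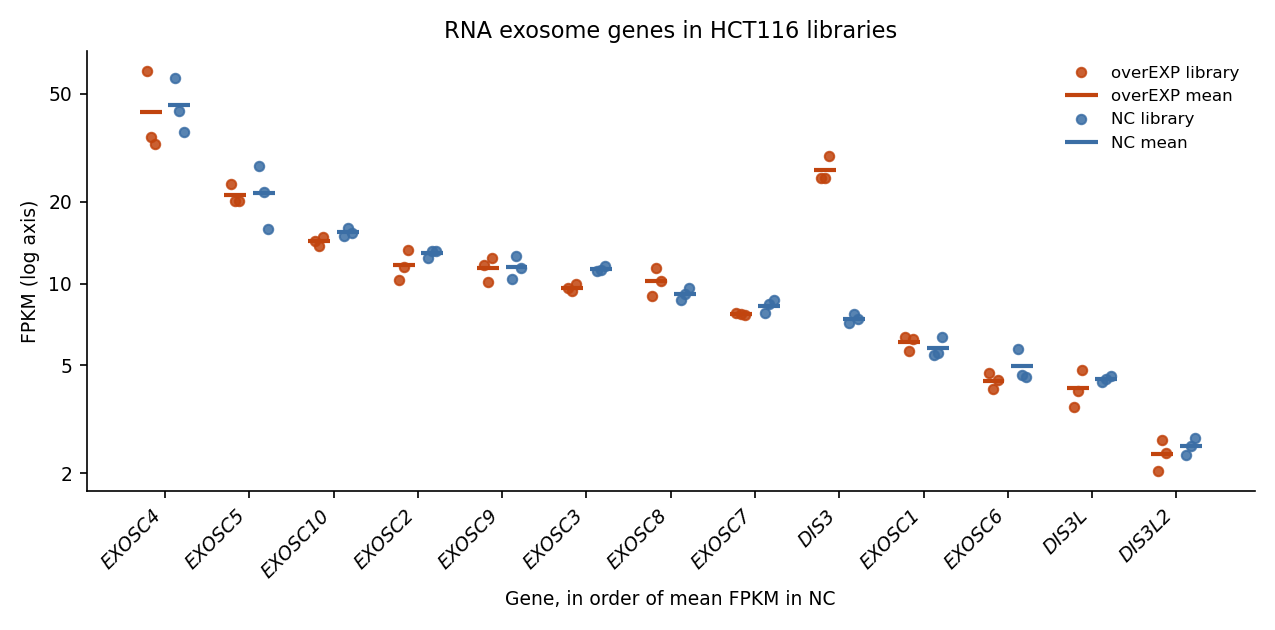
FPKM of the 13 exosome genes (log axis) in the 3 overEXP libraries (left points of each gene) and the 3 NC libraries (right points), with bars at the group means. DIS3 sits at 24.6 to 29.4 FPKM in overEXP and at 7.17 to 7.71 FPKM in NC, while the groups of most other genes lie over each other.

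Among the other nucleases, EXOSC10, the nucleolar exonuclease, was read at 14.3, 13.7 and 14.9 FPKM in overEXP, against 14.9, 16.0 and 15.4 FPKM in NC. Its groups did not overlap, by a small margin, with the overEXP libraries on the lower side. The log2 difference was -0.10 (95% interval -0.25 to 0.05, adjusted p = 0.386 from limma). DIS3L, the cytoplasmic nuclease, was read at 3.50, 4.03 and 4.79 FPKM in overEXP, against 4.33, 4.46 and 4.56 FPKM in NC. The overEXP libraries spread around the NC values on both sides (log2 difference -0.10, 95% interval -0.34 to 0.14, adjusted p = 0.587). DIS3L2, the exosome-independent paralog, had the lowest level of the family, with 2.03, 2.65 and 2.39 FPKM in overEXP, against 2.34, 2.52 and 2.69 FPKM in NC. Its groups overlapped as well (log2 difference -0.07, 95% interval -0.30 to 0.16, adjusted p = 0.704).

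Among the cap subunits, EXOSC3 came closest to the threshold, on the lower side. It was read at 9.64, 9.36 and 9.99 FPKM in overEXP, against 11.1, 11.2 and 11.6 FPKM in NC. Every overEXP library was below every NC library, but the log2 difference of -0.21 (standard error 0.06) did not pass over all genes (adjusted p = 0.106 from limma). EXOSC2, the other cap subunit among the members, was read at 10.3, 11.5 and 13.3 FPKM in overEXP, against 12.4, 13.2 and 13.1 FPKM in NC. Its overEXP libraries spread widely and reached past the NC values at the top (log2 difference -0.14, adjusted p = 0.414). EXOSC1, the third cap subunit, was at 5.66 to 6.37 FPKM in overEXP and 5.47 to 6.37 FPKM in NC (log2 difference 0.07, adjusted p = 0.675).

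Among the ring subunits, none was called higher or lower, where 4.23% of all genes tested were called. EXOSC7 was the steadiest gene in overEXP, with 7.79, 7.75 and 7.67 FPKM, against 7.78, 8.41 and 8.69 FPKM in NC (log2 difference -0.09, adjusted p = 0.478). EXOSC9 was at 11.7, 10.1 and 12.4 FPKM in overEXP, against 10.4, 12.6 and 11.4 FPKM in NC, with groups that interleaved (log2 difference -0.01, adjusted p = 0.974). Outside the members, EXOSC8 was at 8.96 to 11.4 FPKM in overEXP and 8.73 to 9.65 FPKM in NC, and EXOSC6 at 4.08 to 4.69 FPKM in overEXP and 4.53 to 5.73 FPKM in NC. Neither passed (log2 differences 0.13 and -0.14, adjusted p = 0.432 and 0.438).

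EXOSC4 and EXOSC5, both ring subunits, had the widest intervals of the 12 genes tested. EXOSC4 had the highest level of all, with 60.7, 34.6 and 32.6 FPKM in overEXP, against 57.2, 43.1 and 36.2 FPKM in NC. Replicate 1 was the highest library of each group, and the spread within a group was larger than the difference between the groups (log2 difference -0.12, standard error 0.25, 95% interval -0.71 to 0.46, adjusted p = 0.802). EXOSC5 was at 23.3, 20.1 and 20.2 FPKM in overEXP, against 27.1, 21.8 and 15.9 FPKM in NC. Here too replicate 1 was the highest of each group, and the log2 difference was 0.00 (95% interval -0.40 to 0.41, adjusted p = 0.996). EXOSC4 has the shortest canonical transcript of the 13 genes in GENCODE 44, with 842 bases, and EXOSC5 the next, with 998 bases. The coefficient of variation of EXOSC4 was 36.8% in overEXP and 23.5% in NC. That of EXOSC5 was 8.67% in overEXP, below that of 6 other members or core subunits besides EXOSC4, and 26.1% in NC, and that of EXOSC7 was 0.760% in overEXP and 5.63% in NC. On the same strand as EXOSC4 the GENCODE 44 annotation holds an overlapping gene model (ENSG00000290230) that spans it. The expression table holds no value for this model, so a sharing of reads with it cannot be read here.

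Over the 9 members besides DIS3, 0 were higher and 0 lower by limma, while 1.25% of all genes tested were called higher and 2.98% lower, 4.23% in all. At an unadjusted p under 0.05, 1 of the 9 (EXOSC3) was counted, against 22.9% of all genes. The groups did not overlap for 2 of the 9, EXOSC3 and EXOSC10, both with overEXP lower, while the groups of 21.7% of all genes were apart in this direction, 9.23% in the other and 30.9% in either. The median log2 difference of the 9 was -0.10, against -0.05 over all genes tested. Of the 9, 8 were negative and 1 was positive, where 38.4% of all genes were positive. With values rescaled to TPM, which gives all libraries 1 common total, the median of the 9 was -0.25 and that of all genes -0.20, and all 9 were negative. With median-of-ratios scaling these medians were -0.04 and 0.00, and 2 of the 9 were positive. Both scalings multiply a library by 1 factor and so shift all genes nearly alike. With quantile normalization the medians were -0.04 and -0.01, and 2 of the 9 were positive. The upper limit of the 95% interval was at most 0.46, for EXOSC4, and the next was 0.41, for EXOSC5. For the other 7 members it was 0.22 or less, where the log2 difference of DIS3 was 1.69.

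**Figure D2:**
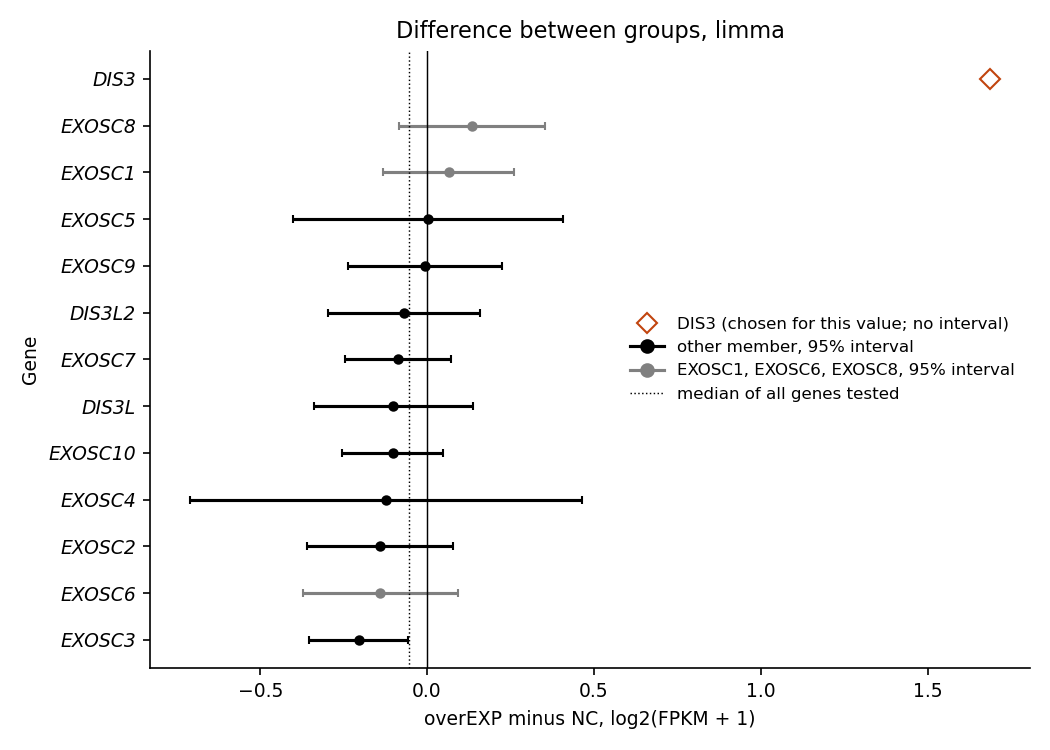
Difference between overEXP and NC on log2(FPKM + 1) for the 13 exosome genes, with 95% intervals from limma for 12 of them, and DIS3 as an open diamond with no interval. The intervals of all genes besides DIS3 end at 0.46 or below, and that of EXOSC4 is the widest.

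The exosome genes were put in order by FPKM in each group, and the nucleases were read relative to each other and to the core. DIS3 was chosen for its increase, so its ranks and ratios here restate that choice and are given as a description. In overEXP the order by mean FPKM was EXOSC4, DIS3, EXOSC5 and EXOSC10, and in NC it was EXOSC4, EXOSC5, EXOSC10 and EXOSC2, with DIS3 at rank 9 of 13. DIS3 and EXOSC5 are neighbors in the overEXP order, and their libraries did not overlap there, while DIS3 and EXOSC7 in NC (7.17 to 7.71 and 7.78 to 8.69 FPKM) differed by little. DIS3L and DIS3L2 were the 2 lowest genes in both groups. Ratios within a library do not depend on the scaling between libraries. DIS3 was 7.01, 6.10 and 6.14 times as high as DIS3L in overEXP, against 1.65, 1.73 and 1.62 times in NC. DIS3 was 1.72, 1.79 and 1.98 times as high as EXOSC10 in overEXP, against 0.480, 0.483 and 0.480 times in NC, so that the order of these 2 nuclear nucleases by FPKM was turned round. Such an order rests on the transcript length used for each gene. The canonical transcript has 10571 bases for DIS3 and 2796 bases for EXOSC10. Of the summed FPKM of DIS3, DIS3L and EXOSC10, DIS3 made up 58.7% ± 1.10 in overEXP and 27.2% ± 0.208 in NC (SD, n = 3 libraries each). The ratio of DIS3 to the geometric mean of the 9 core subunits was 2.39 ± 0.272 in overEXP and 0.648 ± 0.0390 in NC (SD, n = 3 each). For EXOSC10 the same ratio was 1.30 ± 0.0540 in overEXP and 1.35 ± 0.0787 in NC, and for DIS3L it was 0.375 ± 0.0657 in overEXP and 0.389 ± 0.0245 in NC (SD, n = 3 each), and both differed by less than the spread between libraries. The geometric mean of the core itself was 11.0 ± 0.486 FPKM in overEXP and 11.5 ± 0.428 FPKM in NC (SD, n = 3 each).

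**Figure D3:**
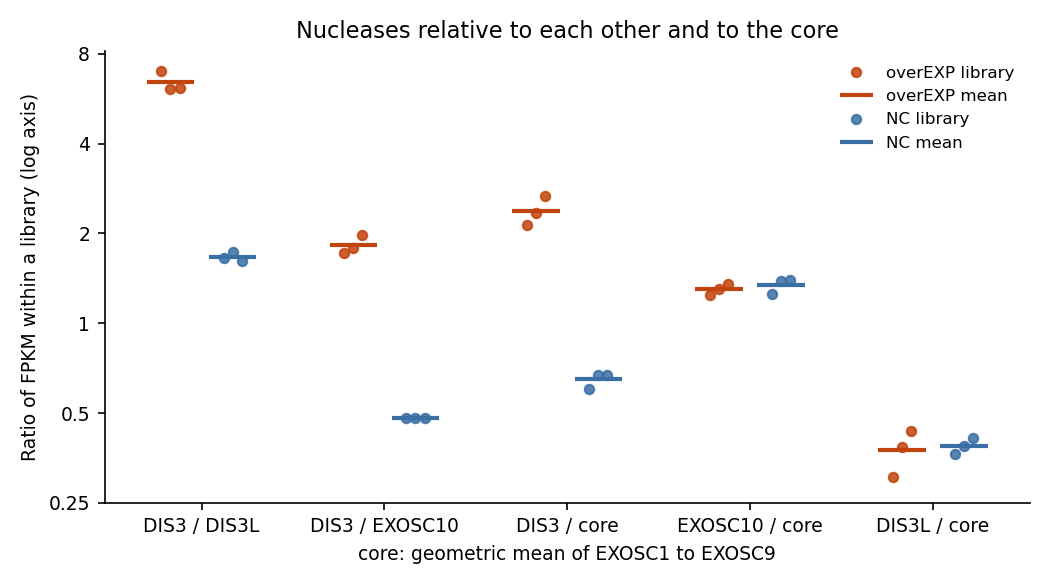
Ratios of FPKM within each library (log axis), overEXP left and NC right, with bars at the means. The 3 ratios with DIS3 on top are apart between the groups (DIS3 to EXOSC10 is 1.72 to 1.98 in overEXP and about 0.48 in NC), and those of EXOSC10 and DIS3L to the core overlap. DIS3 was chosen for its increase, so its ratios are a description.

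The genes around DIS3 were read to see how far the difference extends along the chromosome. DIS3 lies at chr13:72752169-72782096 on the minus strand of GRCh38 in GENCODE 44, and the canonical transcript has 21 exons. PIBF1, a centrosomal protein gene, runs away from DIS3 on the plus strand, and the start sites of their canonical transcripts are 233 bases apart, so the printed DIS3 window holds both. The promoter window of PIBF1 overlaps that of DIS3. It holds 1 match to CCGGAAG and 2 to CCAAT, all reverse, which are the letters marked in the DIS3 window. BORA, an activator of the mitotic kinase Aurora A, runs towards DIS3 from the other side, and the 3′ ends of BORA and DIS3 overlap by 4030 bases. PIBF1 was at 2.59, 3.46 and 3.95 FPKM in overEXP, against 3.42, 3.44 and 3.49 FPKM in NC. The overEXP libraries lay on both sides of NC (log2 difference -0.05, 95% interval -0.33 to 0.23, adjusted p = 0.827 from limma). BORA was at 4.89, 5.60 and 5.74 FPKM in overEXP, against 4.36, 5.53 and 5.16 FPKM in NC (log2 difference 0.09, 95% interval -0.14 to 0.33, adjusted p = 0.601). Whether the counting used the strand is not given in the sources used here, and reads in the overlap of BORA and DIS3 may be shared.

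MZT1, a component of the gamma-tubulin ring complex that lies beyond BORA, was at 11.2, 12.6 and 13.8 FPKM in overEXP, against 10.7, 9.89 and 9.27 FPKM in NC. Its overEXP libraries were all above NC, and the log2 difference of 0.30 did not pass (adjusted p = 0.0985), and 2 genes of the list besides DIS3 were called higher with median-of-ratios scaling or quantile normalization, against 1 here. The transcription factor genes KLF5 and KLF12 and TBC1D4, a Rab GTPase activator, did not pass (log2 differences 0.07, 0.18 and -0.21, adjusted p = 0.820, 0.351 and 0.112). COMMD6, a gene of the COMM domain family whose start site lies 2756 kb from that of DIS3, was the 1 of 8 tested neighbors called higher. The list was written with earlier results of these data known. Of the 8, 6 had a positive log2 difference, as had 38.4% of all genes. For 3 of the 8 (MZT1, KLF12 and COMMD6) every overEXP library was above every NC library, against 9.23% of all genes. For 1 (TBC1D4) every overEXP library was below, against 21.7%. COMMD6 was read at 17.2, 16.9 and 14.3 FPKM in overEXP, against 5.66, 8.11 and 7.94 FPKM in NC. The groups were well apart, with a log2 difference of 1.07 (standard error 0.14, adjusted p = 0.0117 from limma). COMMD6 kept this call in 12 of 13 alternatives, and the adjusted p was 0.0871 without the filter on low values. UCHL3, a ubiquitin hydrolase gene, runs the other way with 44 bases between the 2 gene models. UCHL3 was at 5.80, 5.71 and 5.47 FPKM in overEXP, against 4.40, 5.06 and 7.70 FPKM in NC, and its log2 difference was 0.02 (adjusted p = 0.962). DACH1 and LMO7 of the same list were not tested because of low values. Of the 199 tested genes of chromosome 13 besides DIS3, 1 was higher (COMMD6) and 1 was lower, with a median log2 difference of 0.03. Both shares were below those of all genes tested, 1.25% higher and 2.98% lower, whose median was -0.05.

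**Figure D4:**
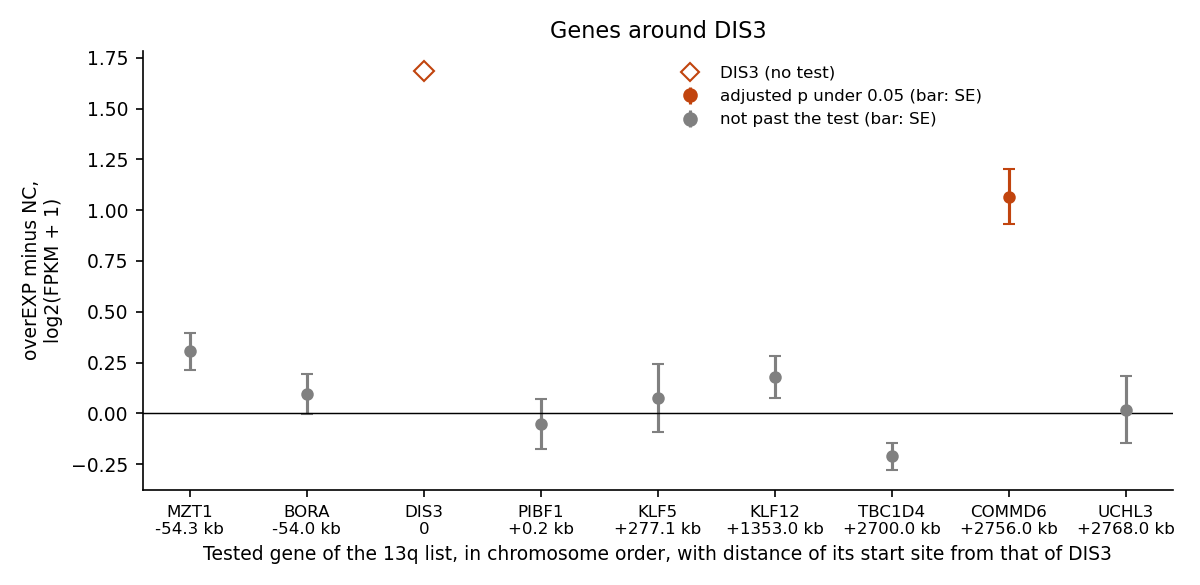
Difference between overEXP and NC on log2(FPKM + 1) for the tested genes of the list around DIS3, in chromosome order, with the distance of each start site from that of DIS3 under its name and bars for the standard error. DIS3 (open diamond, no test) and COMMD6 at 2756 kb stand above the others, and PIBF1 and BORA next to DIS3 lie near 0.

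The partners that bring RNA to the exosome were read from lists written with earlier results of these data known. Of 15 nuclear cofactors, among them the helicase MTREX and the adaptors of the NEXT, TRAMP-like and PAXT complexes, 0 were called higher or lower. Of all genes tested, 4.23% were called. An unadjusted p under 0.05 was found for 3 of the 15, a share close to the 22.9% of all genes. The list's median log2 difference was -0.08. C1D, a nuclear partner of EXOSC10, was closest, at 6.99, 6.99 and 8.53 FPKM in overEXP, against 5.35, 5.09 and 5.74 FPKM in NC. All overEXP libraries were above NC (log2 difference 0.41, standard error 0.09, adjusted p = 0.0562 from limma), and C1D passed with median-of-ratios scaling and with quantile normalization (adjusted p = 0.0234 and 0.0245). In the other direction, 1 cofactor was called lower in 4 of 13 alternatives, those with TPM, median-of-ratios scaling, quantile normalization and without overEXP replicate 3. ZC3H18, which links the cap-binding complex to NEXT, lay the other way, at 5.41, 5.71 and 6.28 FPKM in overEXP, against 7.63, 7.18 and 7.38 FPKM in NC (log2 difference -0.31, adjusted p = 0.068). MTREX itself was at 15.8, 15.2 and 17.7 FPKM in overEXP, against 15.3, 16.2 and 16.8 FPKM in NC (log2 difference 0.01, adjusted p = 0.961). The 4 genes of the cytoplasmic SKI complex and its bridge to the exosome were not called. The helicase SKIC2 (SKIV2L in the table) and SKIC8 (WDR61) had the smallest adjusted p, 0.236 and 0.771.

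Other routes of RNA decay held 1 call each or none, where 1.25% of all genes were called higher and 2.98% lower. In the 5′ to 3′ route of decapping and XRN nucleases, 1 of 18 genes was higher and 0 were lower. This was LSM5, a subunit of the LSM rings that bind the ends of decaying RNAs and of U6 RNA, with 11.1, 10.7 and 12.9 FPKM in overEXP, against 8.38, 8.58 and 7.73 FPKM in NC (log2 difference 0.44, standard error 0.09, adjusted p = 0.0389 from limma). Of 10 genes of nonsense-mediated decay, 1 was lower and 0 were higher. SMG8, a regulator of the kinase SMG1, fell to 8.90, 7.40 and 8.58 FPKM in overEXP, against 11.1, 11.2 and 12.5 FPKM in NC (log2 difference -0.44, standard error 0.09, adjusted p = 0.0389). All 10 had a negative log2 difference, where 38.4% of all genes had a positive one. Their median was -0.17, and -0.08 without overEXP replicate 1, and 2 of the 10 were positive after median-of-ratios scaling or quantile normalization. Of 13 factors that make ribosomes together with the exosome, 1 was lower and 0 were higher. PES1, of the PeBoW complex, fell to 31.9, 32.6 and 34.6 FPKM in overEXP, against 40.4, 42.6 and 40.9 FPKM in NC (log2 difference -0.31, standard error 0.06, adjusted p = 0.0401). In this list the overEXP libraries were all below NC for 9 of the 13 genes, where the background is 21.7%, and the median log2 difference was -0.20. The calls of LSM5, SMG8 and PES1 were each lost in 10 of 13 alternatives, among them each fit without 1 NC library and the fit without overEXP replicate 2, with adjusted p over the alternatives of 0.0213 to 0.149 for LSM5, 0.0194 to 0.15 for SMG8 and 0.03 to 0.177 for PES1. The count of lower ribosome factors lay between 0 and 6 over these alternatives.

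Of 15 deadenylase genes 0 were called, where 4.23% of all genes tested were. CNOT8 and CNOT6L, both CCR4-NOT nucleases, had the smallest adjusted p (log2 differences 0.25 and 0.37, adjusted p = 0.0688 and 0.08). Over the 13 alternatives, 0 to 2 of the 15 were called higher (1 with median-of-ratios scaling) and 0 lower. Of 4 genes of uridylation and related tailing that were tested, 0 were called, and TUT4 and TUT7, which add the uridines that DIS3L2 recognizes, had log2 differences of 0.02 and -0.08 (adjusted p = 0.919 and 0.616). MTPAP, the mitochondrial poly(A) polymerase, had a log2 difference of -0.19 (adjusted p = 0.169). By the pathway annotation in the deposited table, 70 tested genes of RNA degradation besides DIS3 held 2 that were higher and 0 that were lower. These were LSM5 and ENO2, a glycolytic enolase that the pathway includes because enolase is part of bacterial RNA degradosomes. ENO2 was at 19.1, 19.1 and 21.7 FPKM in overEXP, against 10.9, 12.1 and 12.2 FPKM in NC (log2 difference 0.72, standard error 0.08, adjusted p = 0.00826 from limma). The share called higher was above the background of 1.25%, and the share called lower was below that of 2.98%, but this rests on 2 calls. Their number depended on the setting: 0 to 6 were higher over the 13 alternatives (5 with median-of-ratios scaling, 6 with quantile normalization, 0 without the filter) and 0 to 3 lower (3 with TPM). Without 1 library, 1 or 2 were higher. The median of the 70 was -0.04, close to that of all genes.

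Short noncoding RNAs that the exosome or DIS3L2 trim or degrade varied between libraries far more than between the groups. RN7SL1, the RNA of the signal recognition particle, was at 1149, 69.7 and 144 FPKM in overEXP, against 448, 140 and 58.6 FPKM in NC. RMRP, the RNA of the RNase MRP, was at 98.2, 6.27 and 4.69 FPKM in overEXP, against 21.5, 7.07 and 2.79 FPKM in NC. Replicate 1 of each group was the highest for both. Of 9 RNAs of this list with an FPKM of 1 or more in any library, 9 were highest in overEXP replicate 1, and for 8 of them NC replicate 1 was the highest of the NC libraries. Of 7 tested, 0 were called, where 4.23% of all genes tested were. SNORD3A (U3) and RNU1-1 (U1) had the smallest adjusted p, with log2 differences of 1.07 and 0.93, standard errors of 0.89 and 0.97, and adjusted p of 0.502 and 0.598. The direction of the list rested on single libraries: all 7 differences were positive with a median of 0.86, but without overEXP replicate 1 the median was -0.32 and 6 of 7 were negative, and without NC replicate 3 it was 0.23 and 3 of 7 were negative. The sum over the 9 was 2567, 173 and 342 FPKM in overEXP, against 1046, 295 and 107 FPKM in NC. The libraries in which these RNAs were high were also those in which EXOSC4 and EXOSC5 were highest, and the part of this in the values of EXOSC4 and EXOSC5 was not tested. FPKM of RNAs shorter than the usual fragment are poorly defined.

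**Figure D5:**
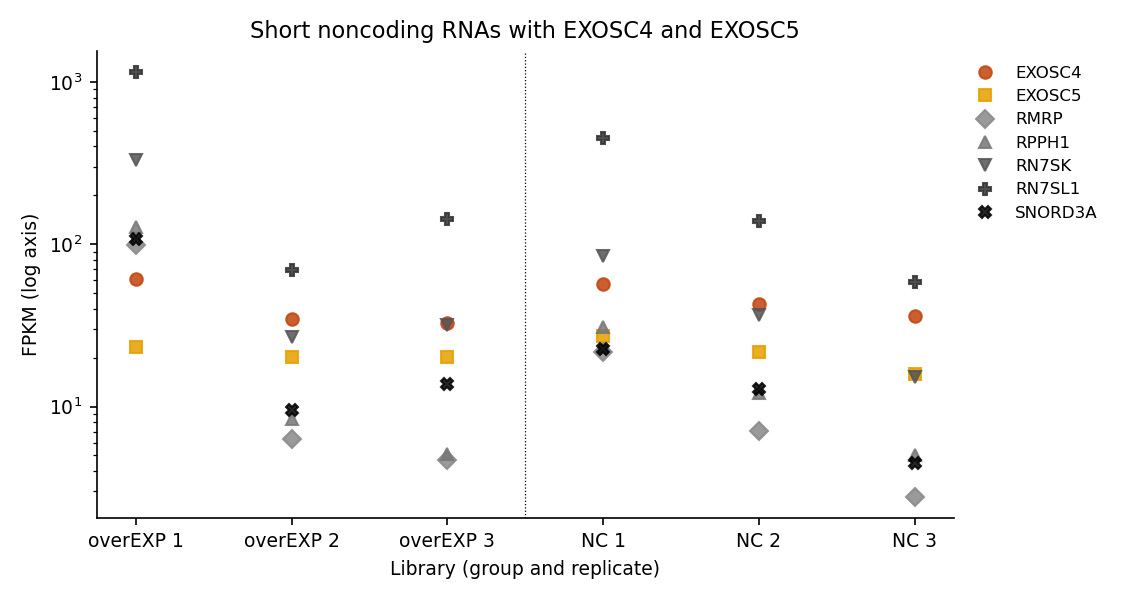
FPKM (log axis) of 5 short noncoding RNAs and of EXOSC4 and EXOSC5 in each library. Replicate 1 of overEXP and replicate 1 of NC hold the highest values of their groups for all 7 genes, for example 1149 FPKM for RN7SL1 in overEXP replicate 1.

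The tested genes whose values over the 6 libraries were most like those of DIS3, by the Pearson correlation of log2(FPKM + 1), were RSL24D1 (r = 0.999), EPHX2 (r = 0.997), PCDHAC2 (r = 0.997) and PPIH (r = 0.996). The 6 libraries fall into 2 clusters for each of these genes, the groups themselves, so such a correlation mostly shows that the groups are apart, and no test is given. RSL24D1, a factor of the large ribosomal subunit, was at 56.6, 55.6 and 58.5 FPKM in overEXP, against 39.9, 40.8 and 40.3 FPKM in NC. EPHX2 was at 157, 162 and 181 FPKM in overEXP, against 1.53, 1.96 and 1.50 FPKM in NC. In both genes, as in DIS3, overEXP replicate 3 was the highest library and NC replicate 2 the highest NC library. PPIH, a splicing cyclophilin, differed less (log2 difference 0.28, adjusted p = 0.0406 from limma). PCDHAC2 was near 1 FPKM in every library, at 1.26 to 1.33 FPKM in overEXP and 1.06 to 1.07 FPKM in NC, and it belongs to a gene cluster with shared exons whose reads may be split.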

How the data were processed

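Total RNA of HCT116 cells, 3 overEXP and 3 NC libraries, was sequenced. The authors cleaned reads with FastQC, aligned them to GRCh38 with HISAT2 (version 2.0.4, per the submitters' notes), assembled and merged transcripts with StringTie and gffcompare, and deposited FPKM per gene and library from StringTie. The depth is unknown, and precision rests on the spread between 3 libraries. The 4 columns of the authors' own comparison (fold change, its log2, p and q) were not used.

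Libraries were grouped by the labels. The 12281 of 38041 genes that reached 1 FPKM in 3 or more libraries were compared on log2(FPKM + 1), which understates changes of low genes, with limma (3.58.1, R 4.3.3; variance trend), whose two-sided p-values were adjusted by Benjamini-Hochberg over all genes tested. The procedure was tested on simulated data. Fitting and adjustment covered the whole table. Positions are from GENCODE 44, whose build (GRCh38) is the one the authors named, and promoters from RefSeq (GRCh38.p14). Members and lists were chosen with earlier results of these data known. Named genes are all members and core subunits, list genes past the test or else the 2 with the smallest adjusted p, all tested 13q neighbors and the 5 genes most like DIS3, of which 1 is not reported here. MTREX, TUT4, RN7SL1 and RMRP were named after their values were seen. Alternatives were another pseudocount, no filter, 3 scalings, a replicate block, no trend and leaving out each library.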

Additional observations from a re-analysis of the deposited data

How the results depend on the processing

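Of the 13 alternatives, 13 left 0 of the 9 members besides DIS3 past the test in either direction. The log2 difference of DIS3 was 1.80 with a pseudocount of 0.1, which by construction shrinks differences less, 1.64 to 1.75 with the 3 other scalings, and 1.60 to 1.73 when 1 library was left out. The ratio of DIS3 to the core, overEXP over NC, was 3.71 and lay between 3.37 and 4.07 without 1 library, and it was 3.72 with EXOSC10 added to the denominator and 3.68 with a geometric mean.

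The counts of all genes called depended on the processing. They were 154 higher and 366 lower, and 3 and 2 without the filter on low values. After rescaling to TPM they were 94 and 852, and after median-of-ratios scaling 333 and 356. After quantile normalization 330 were higher. Without 1 library they ranged over 23 to 199 higher and 21 to 383 lower. The cause was not tested. With the replicate number as a block (replicate block), 213 genes were lower. Libraries of the same number deviated together for numbers 1 and 3 (correlations of 0.36 and 0.37) and not for number 2 (-0.02). Between numbers 1 and 3 the correlations were negative (-0.42 for overEXP 1 with NC 3, -0.31 for overEXP 3 with NC 1). The deviations are from the mean of the 3 libraries of a group, so they depend on each other. The value of number 2 therefore cannot decide whether the numbers pair the libraries. The main fit took the libraries as unpaired, and whether equal numbers share a batch was not tested. The depth is unknown, and the precision for each subunit is that of its interval.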

Other observations

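Classes of noncoding genes were counted by the transcript types in the deposited table, where 1.25% of all genes tested were called higher and 2.98% lower. Of 537 tested genes listed as lncRNA alone, 6 were higher and 12 lower in overEXP than in NC, shares close to those of all genes, with a median log2 difference of -0.08. Of 59 tested small nucleolar RNA genes, 1 was higher and 3 were lower, with a median of -0.25, and of 29 tested small nuclear RNA genes 0 were called. Of 456 tested processed pseudogenes, 10 were higher and 1 was lower, with a median of 0.09; reads of these copies can be shared with their parent genes. Among all genes tested, 38.4% had a positive log2 difference. The small nuclear RNA genes took 0.228%, 0.0341% and 0.0491% of the summed FPKM in overEXP replicates 1 to 3, against 0.0785%, 0.0537% and 0.0380% in NC replicates 1 to 3, again with replicate 1 the highest of each group.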
